A study of Homo sapiens with 4 samples.

Results

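Interferon-stimulated genes, the antiviral programme that a cell switches on after it senses virus-like RNA or receives interferon, were compared across 4 RNA sequencing libraries of NUGC3, an established human stomach cancer cell line. The set holds 47 genes, listed by name from common knowledge of this programme and found by gene symbol among the 53777 Ensembl gene rows of the deposited table. The list was chosen with earlier results of these data known. Its counts beside the shares of all genes are therefore descriptions and no independent test. All 47 were present, each in 1 row. Of the libraries, 2 came from wild-type NUGC3 cells and 2 from NUGC3 cells with MYC knocked down, MYC being a regulator of transcription and of cell growth. The labels do not say how the knockdown was made, whether wild-type cells received a control agent, or whether replicates were separate cultures, so any spread between replicates may be technical. The knockdown libraries are described one at a time and their levels are never averaged.

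In this pathway, secreted interferons bind receptors at the cell surface, and the receptor-bound kinases JAK1 and TYK2 activate transcription factors in the cytoplasm. The complex ISGF3, which contains STAT2 and IRF9, then binds the interferon-stimulated response element (ISRE) in the promoters of the genes described here. Their products bind or degrade viral RNA, block viral entry and budding, attach the ubiquitin-like protein ISG15 to other proteins, or sense more RNA and so renew the signal. Epithelial cells, among them those of the stomach and gut, respond to type I interferon (alpha and beta) and to type III interferon (lambda).

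The values are FPKM, fragments per kilobase of transcript scaled to library size, which can be compared between genes because they are scaled to length. Differences are between values of log2(FPKM + 1), a scale that understates changes of low genes, and 1 log2 unit is a 2-fold difference of FPKM + 1. Where 4 values follow a gene name, they belong to wild type 1, wild type 2, knockdown 1 and knockdown 2, in that order. The targeted gene MYC lay at 82.9, 82.0, 65.0 and 75.8 FPKM. Of 10 epithelial markers, EPCAM and KRT18 among them, all 10 were above the filter described next. PTPRC, the pan-leukocyte marker, NKG7, CD2, MS4A1 and CLEC4C were listed at 0 in every library, 13 of 14 immune markers stayed under 1 FPKM in all libraries, and the 14 summed to 14.2, 18.7, 22.7 and 23.3 FPKM, most of it CD68, which is a lysosomal protein of many cell types. Fibroblast markers summed to between 2.98 and 8.14 FPKM, nearly all of it COL1A1, with COL1A2, COL3A1 and DCN at 0 in all libraries, and the 3 endothelial markers found summed to 0.21 FPKM or less.

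A filter of at least 1 FPKM in at least 2 libraries left 12953 genes for the test of knockdown against wild type. Of the 47 interferon-stimulated genes, 41 passed it and 6 did not. The 6 were OAS2, RSAD2, SAMD9L, RTP4, IFI44L and XAF1. A further 3, MX2, TRIM22 and IFI27, passed with no wild-type library at 1 FPKM, that is, only through their knockdown values. The other 38 were at 1 FPKM or more in both wild-type libraries. The descriptions below use all 47 genes.

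Knockdown replicate 1 carried the programme at a higher level than the other 3 libraries. The 47 genes summed to 678 and 672 FPKM in the wild-type libraries, 2517 FPKM in knockdown replicate 1 and 699 FPKM in knockdown replicate 2. As a share of the FPKM of all Ensembl rows these sums were 0.10%, 0.10%, 0.391% and 0.114%. The number of these genes at 10 FPKM or more was 16, 16, 41 and 17. In bulk RNA such a level can come from more cells that express a gene or from more RNA per cell, just as fewer cells of a type and less RNA per cell cannot be told apart.

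The median difference of the 47 genes from the wild-type mean was 1.73 log2 units in knockdown replicate 1 and 0.08 in knockdown replicate 2, where the medians over all genes tested were 0.07 and 0.01. In knockdown replicate 1, 34 of 47 lay over 1 log2 unit above the wild-type mean, against 2.1% of all genes tested and 1.45% of the 24879 rows above 0 in any library. None of the 47 lay over 1 log2 unit below it, against 1.52% of all genes tested. In knockdown replicate 2, 0 of 47 lay over 1 log2 unit above the wild-type mean, against 2.06% of all genes tested, and 0 of 47 over 1 log2 unit below it, against 1.84%. Knockdown replicate 1 held the highest of the 4 values for 46 of 47 genes, against 38% of all genes tested, the exception being TRIM25. Between the knockdown libraries, 34 of 47 genes were over 1 log2 unit higher in replicate 1, against 1.71% of all genes tested, and 0 of 47 were over 1 log2 unit higher in replicate 2, against 1.51%. The wild-type libraries differed by at most 0.52 log2 units for any of the 47 genes, with a median absolute difference of 0.07.

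**Figure D1:**
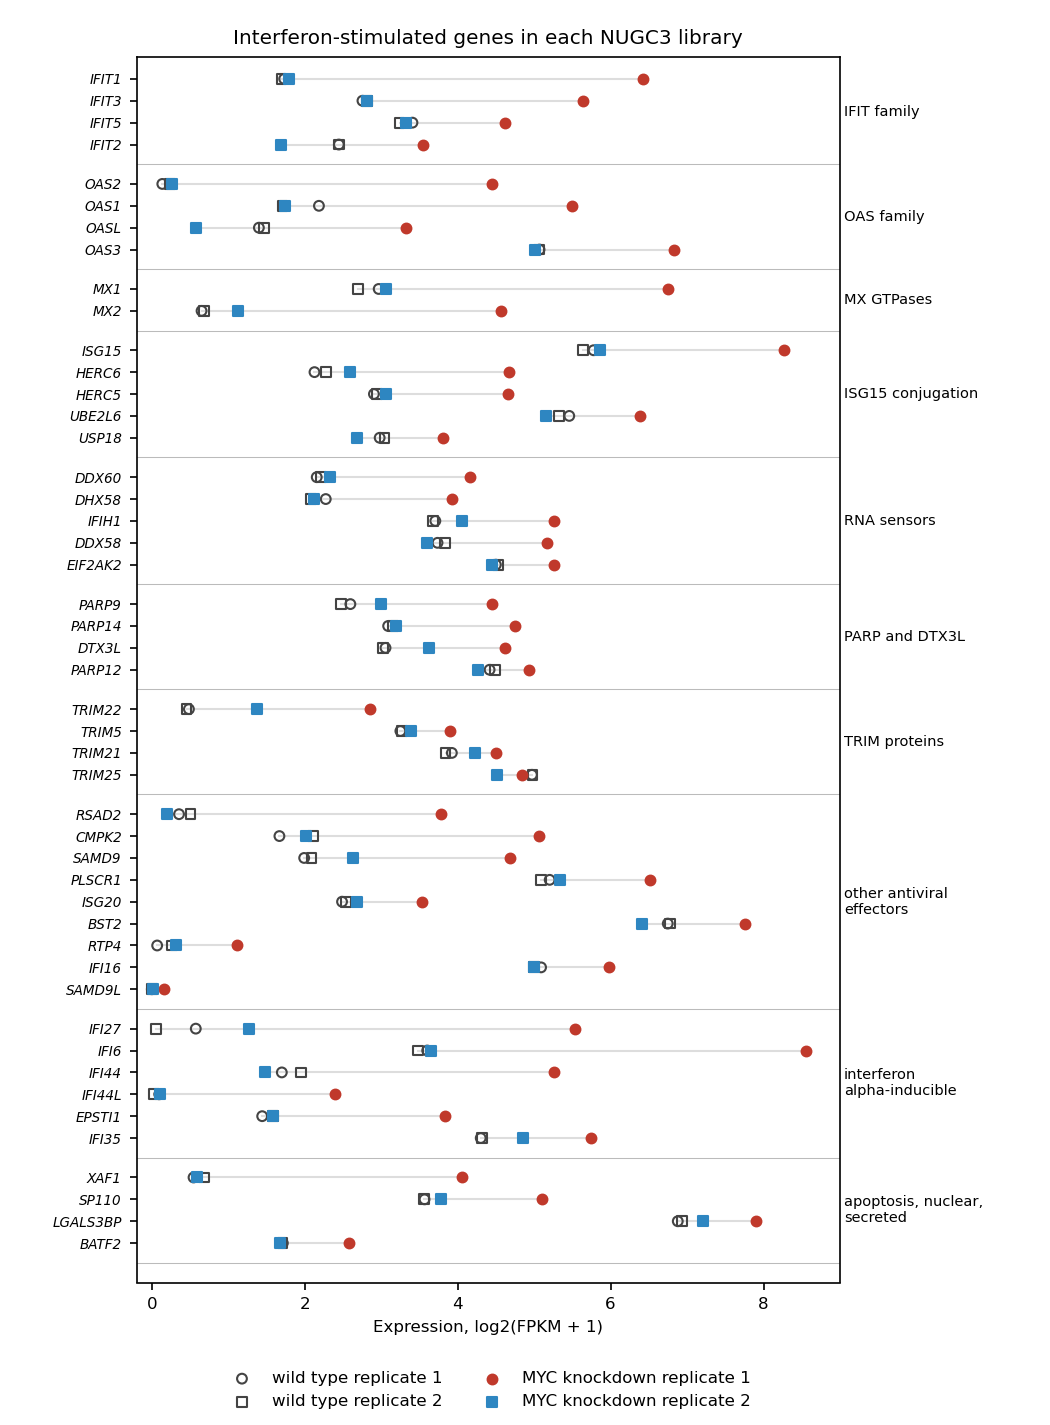
Expression of the 47 interferon-stimulated genes in each library, as log2(FPKM + 1) on the x axis, with 1 row per gene, grouped by role and ordered within a group by the difference of knockdown replicate 1 from wild type. Open symbols are the wild-type libraries, the filled circle is knockdown replicate 1 and the filled square knockdown replicate 2; the filled circle lies farthest right in 46 of 47 rows.

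IFIT1 binds viral RNA whose cap lacks the methyl marks of host messages. All 4 genes of the IFIT family were over 1 log2 unit above wild type in knockdown replicate 1. IFIT1 (ENSG00000185745) stood at 2.32, 2.24, 85.2 and 2.47 FPKM, so that knockdown replicate 1 was 37.4 times the wild-type mean while the other 3 libraries lay close together. IFIT2 (ENSG00000119922), also on chromosome 10, was at 4.45, 4.46, 10.7 and 2.23 FPKM. It had the smallest difference of the family in knockdown replicate 1, 1.10 log2 units, and in knockdown replicate 2 it was at 0.501 times the wild-type mean. IFIT3, which stabilises IFIT1, and IFIT5 differed by 2.86 and 1.30 in knockdown replicate 1 and by 0.03 and -0.0040 in knockdown replicate 2.

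The OAS enzymes make 2'-5'-linked oligoadenylates when they bind double-stranded RNA, and these activate the ribonuclease RNase L. OAS2 (ENSG00000111335) was almost silent outside knockdown replicate 1, at 0.10, 0.18, 20.9 and 0.20 FPKM. OAS1, in the same cluster on chromosome 12, stood at 3.55, 2.27, 44.0 and 2.35 FPKM, again with the other knockdown library among the wild-type values. OAS3, the most abundant of the family in wild type, had the smallest difference, at 32.6, 32.3, 113 and 31.3 FPKM. OASL, a member without enzyme activity that enhances RIG-I signalling, was at 1.64, 1.77, 9.02 and 0.49 FPKM. For OASL the knockdown libraries thus lay on opposite sides of wild type, at 1.89 and -0.86 log2 units. The MX proteins are antiviral GTPases. MX1 traps the nucleoproteins of influenza-like viruses, and MX2 acts against HIV. MX1 (ENSG00000157601) was at 6.82, 5.47, 107 and 7.35 FPKM and MX2 at 0.57, 0.61, 22.7 and 1.18 FPKM, differences of 3.92 and 3.89 log2 units in knockdown replicate 1.

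ISG15 is a ubiquitin-like protein that UBE2L6 and the ligase HERC5 attach to newly made proteins and USP18 removes. ISG15 (ENSG00000187608) stood at 53.9, 49, 308 and 57.1 FPKM, which made it, after IFI6, the highest of the 47 genes in knockdown replicate 1. Its conjugating enzyme UBE2L6 differed by 0.98 log2 units in that library, HERC5 by 1.73 and the related HERC6 by 2.47. HERC6 was at 3.37, 3.85, 24.4 and 5.01 FPKM, with both knockdown values above both wild-type values. USP18, which also dampens the type I interferon receptor, differed least, at 6.89, 7.24, 13.0 and 5.43 FPKM. Its near-identical copy USP41 was listed at 0 in all libraries, so reads that fit both genes may have been counted in USP18 alone.

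Among the cytosolic sensors of viral RNA, the helicase DDX60 had the largest difference in knockdown replicate 1, 1.98 log2 units, at 3.46, 3.65, 16.9 and 4.03 FPKM. The kinase EIF2AK2 (PKR), which halts translation when it binds double-stranded RNA, had the smallest, 0.75, at 21.6, 22.1, 37.4 and 20.8 FPKM. DDX58 (RIG-I) and its regulator DHX58 (LGP2) differed by 1.38 and 1.75 in knockdown replicate 1 and by -0.18 and -0.06 in knockdown replicate 2. IFIH1 (MDA5), which detects long double-stranded RNA, was above both wild-type values in each knockdown library, at 12.1, 11.8, 37.4 and 15.7 FPKM.

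PARP9 and its partner DTX3L, a ubiquitin ligase complex, were above both wild-type values in both knockdown libraries. PARP9 stood at 5.05, 4.56, 20.8 and 7.0 FPKM. DTX3L was at 7.32, 7.11, 23.5 and 11.3 FPKM. The differences were 1.91 and 1.58 log2 units in knockdown replicate 1 and 0.46 and 0.58 in knockdown replicate 2. PARP14, an ADP-ribosyltransferase, differed by 1.62 and 0.08, and PARP12 by 0.48 and -0.18, at 20.4, 21.4, 29.5 and 18.2 FPKM. The TRIM proteins, ubiquitin ligases that act on capsids or on the sensors, had the smallest differences of all groups, with a median of 0.63 in knockdown replicate 1. TRIM22 was the exception, at 0.40, 0.37, 6.20 and 1.6 FPKM, with both knockdown libraries above wild type. TRIM21, an intracellular antibody receptor, stood at 14.2, 13.3, 21.7 and 17.7 FPKM. TRIM5, which recognises retroviral capsids, differed by 0.64 in knockdown replicate 1 and 0.13 in knockdown replicate 2. TRIM25, which ubiquitinates RIG-I, was at 30.4, 30.5, 27.5 and 21.9 FPKM and was the 1 gene of the 47 that was under wild type in each knockdown library.

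Of the 9 other antiviral effectors, RSAD2 (viperin, a radical SAM enzyme that makes a chain-terminating nucleotide) differed most, at 0.28, 0.42, 12.7 and 0.15 FPKM. CMPK2, a mitochondrial nucleotide kinase and its neighbour on chromosome 2, stood at 2.18, 3.31, 32.6 and 3.04 FPKM. Both were thus high in knockdown replicate 1 alone. SAMD9, a restriction factor of poxviruses, was at 2.98, 3.25, 24.7 and 5.19 FPKM, whereas the adjacent paralog SAMD9L stood at 0, 0, 0.12 and 0.01 FPKM. BST2 (tetherin), which holds budding virions to the cell surface, was at 106, 109, 216 and 84.2 FPKM. It was the most abundant of these effectors in every library and lay above wild type in knockdown replicate 1 and below it in knockdown replicate 2. The exonuclease ISG20, the scramblase PLSCR1, the chaperone RTP4 and the DNA sensor IFI16 differed by 1.02, 1.37, 0.95 and 0.94 in knockdown replicate 1, and by 0.17, 0.19, 0.16 and -0.04 in knockdown replicate 2.

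The 2 largest differences of the 47 belonged to interferon alpha-inducible proteins. IFI27 (ENSG00000165949), a mitochondrial and nuclear membrane protein, was at 0.49, 0.04, 45.3 and 1.41 FPKM. IFI6 (ENSG00000126709), a related inhibitor of apoptosis and of flavivirus replication, was at 11.1, 10.2, 375 and 11.6 FPKM, 35.2 times the wild-type mean in knockdown replicate 1. The differences were 5.22 and 5.01 log2 units in that library and 0.95 and 0.11 in the other. IFI44, a cytosolic protein of unclear mechanism, was at 2.25, 2.88, 37.2 and 1.80 FPKM, and its neighbour IFI44L at 0.07, 0.02, 4.28 and 0.08 FPKM. Both were at their highest in knockdown replicate 1, and IFI44 was below both wild-type values in knockdown replicate 2. EPSTI1 differed by 2.31 in knockdown replicate 1. IFI35, which binds NMI, had the smallest difference of this group, at 18.7, 18.9, 52.6 and 27.9 FPKM, with both knockdown values above wild type.

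Of the last group, XAF1, which antagonises the apoptosis inhibitor XIAP, stood at 0.46, 0.61, 15.7 and 0.50 FPKM. The nuclear body protein SP110 and the transcription factor BATF2 differed by 1.54 and 0.86 in knockdown replicate 1. BATF2 was at 2.28, 2.27, 4.96 and 2.21 FPKM. LGALS3BP, a secreted glycoprotein that binds galectins, was the most abundant of the 47 genes in wild type, at 117, 122, 239 and 147 FPKM. For LGALS3BP both knockdown libraries lay above wild type, while XAF1 and BATF2 were high in 1 of them only.

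In knockdown replicate 2 these genes lay about as far from wild type as genes in general. Of the 47, 30 (63.8%) lay within 0.25 log2 units of the wild-type mean, against 53% of all genes tested and 66.7% of rows above 0 in any library. Another 11 (23.4%) lay further above, against 24.5% of all genes tested, and 6 (12.8%) further below, against 22.5%. The 11 were IFI27, TRIM22, SAMD9, DTX3L, IFI35, PARP9, MX2, HERC6, IFIH1, TRIM21 and LGALS3BP, with differences from 0.30 for LGALS3BP to 0.95 for IFI27. The 6 were OASL, IFIT2, TRIM25, BST2, IFI44 and USP18, with differences from -0.86 for OASL to -0.33 for USP18. Knockdown replicate 2 was above both wild-type values for 27 genes (57.4%) and below both for 13 (27.7%), where 44.1% and 42.5% of all genes tested were above and below. The lower knockdown value exceeded the higher wild-type value for the same number, 27 of 47, against 33.4% of all genes tested, and the reverse held for 1, against 25.2%. Scaling the libraries to equal column sums moved the median of all genes tested in knockdown replicate 2 from 0.01 to 0.12 and the number of the 47 genes above the wild-type mean from 29 to 36. Relative to all genes tested, the median of the 47 was 0.07 as deposited and 0.05 after that scaling.

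**Figure D2:**
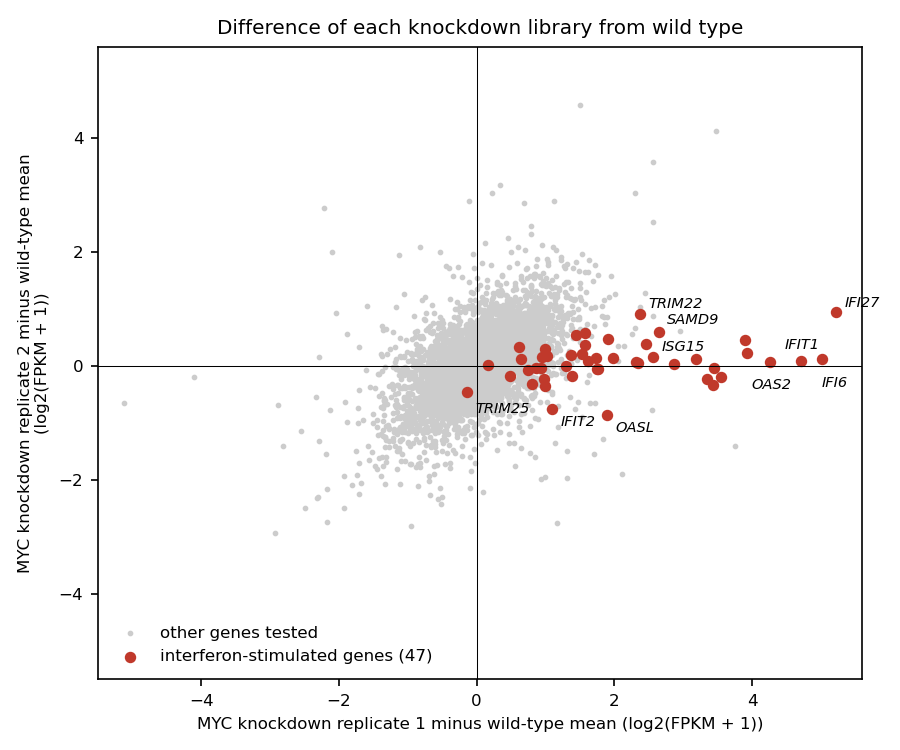
Difference of each gene from the wild-type mean in knockdown replicate 1 (x axis) and knockdown replicate 2 (y axis), both on the log2(FPKM + 1) scale and sharing the same wild-type libraries. Red points are the 47 interferon-stimulated genes and grey points the other genes tested; the red points spread from -0.14 to 5.22 along x and from -0.86 to 0.95 along y.

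In the test of both knockdown libraries against both wild-type libraries, 0 of the 41 genes tested passed an adjusted p of 0.05 (limma with Benjamini-Hochberg adjustment over all 12953 genes), as did 0% of all genes. The adjusted p of these genes ran from 0.116 for TRIM21 to 0.891 for IFIT2. At an unadjusted p under 0.05 there were 5 of 41, TRIM21, IFI35, TRIM22, DTX3L and LGALS3BP, against 25.9% of all genes tested. For these 5 both knockdown libraries lay above wild type. IFI27, IFI6 and IFIT1, with the 3 largest differences in knockdown replicate 1, had adjusted p-values of 0.254, 0.376 and 0.381.

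With knockdown replicate 2 left out, limma called 40 of the 41 genes in knockdown replicate 1, all higher, against 15.2% of all genes tested called higher and 11.2% called lower. The adjusted p ran from 0.00973 to 0.0262, and TRIM25 missed the threshold at 0.13. Without MX2, TRIM22 and IFI27, which passed the filter only through knockdown values, 37 of 38 genes were called higher, against 15.5% of the genes at 1 FPKM or more in both wild-type libraries. With knockdown replicate 1 left out, 5 genes were called higher in knockdown replicate 2 (DTX3L, IFI35, IFIH1, LGALS3BP and SAMD9) and 4 lower (BST2, IFIT2, OASL and TRIM25), against 12.5% and 13.6% of all genes tested. In these fits the lone knockdown library was assumed to vary like the wild-type pair, whose median absolute difference over all genes tested was 0.08 against 0.20 for the knockdown pair. The calls therefore compare single libraries with wild type and are not replicated.

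The size of the difference in knockdown replicate 1 varied with the level at which a gene stood without it. For the 9 genes under 1 FPKM in wild type the median difference was 3.35 log2 units, from 0.16 for SAMD9L to 5.22 for IFI27. For the 22 genes from 1 up to 10 FPKM it was 1.90, and for the 16 genes at 10 FPKM or more it was 1.18, from -0.14 for TRIM25 to 5.01 for IFI6. In knockdown replicate 2 the medians of the same groups were 0.07, 0.08 and 0.04. Against the level in knockdown replicate 2, which does not enter the difference, Pearson's r across the 47 genes was -0.41 and Spearman's rho -0.44, given as a description since genes of 1 library are not independent.

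Promoters were compared for the binding element of ISGF3. The genes were listed as known members of a programme that acts through this element. A high share of matches therefore follows from the list itself and is not a result of these libraries. The RefSeq promoter table (GRCh38.p14), 250 bases before to 50 bases after each start, held 40 of the 47 genes; IFIT2, OAS2, OASL, MX2, USP18, DHX58 and TRIM22 were not matched. An ISRE-type motif, GAAA, 2 bases of any kind and GAAA again, searched on both strands, was present in 26 of the 40 promoters (65%). It was present in 3.65% of all 27305 promoters in the table and in 2.76% of the 8943 promoters of tested genes. Of the 40, 14 held 2 or more matches. Matches that overlap each other were counted separately, as in ISG15, BST2 and TRIM21, so the count is not one of separate elements. A GAS-type motif (TTC, 3 bases of any kind and GAA, the same on both strands), an element of the interferon gamma response, was present in 8 of 40 (20%) against 7.88% of all promoters, and 4 of the 44 ISRE-type matches overlapped a GAS-type match. These matches are descriptions of letters and not of binding.

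The promoter stretches below are shown because they belong to the genes at both ends of the order in knockdown replicate 1 that the table holds, the 4 largest (IFI27, IFI6, IFIT1 and MX1) and the 2 smallest with a mean of at least 1 FPKM (TRIM25 and PARP12). Each is the 170 bases directly before the RefSeq start site, 5' to 3' on the strand of the gene, with bases of ISRE-type matches in capitals. IFI27 is at chr14:94110566-94110735 on the plus strand, IFI6 at chr1:27672193-27672362 on the minus strand and IFIT1 at chr10:89392453-89392622 on the plus strand. MX1 is at chr21:41420388-41420557 on the plus strand, TRIM25 at chr17:56914050-56914219 on the minus strand and PARP12 at chr7:140062952-140063121 on the minus strand.
IFI27: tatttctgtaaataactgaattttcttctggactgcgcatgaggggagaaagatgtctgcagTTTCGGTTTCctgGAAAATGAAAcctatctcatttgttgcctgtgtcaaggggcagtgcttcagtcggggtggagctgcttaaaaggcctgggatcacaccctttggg
IFI6: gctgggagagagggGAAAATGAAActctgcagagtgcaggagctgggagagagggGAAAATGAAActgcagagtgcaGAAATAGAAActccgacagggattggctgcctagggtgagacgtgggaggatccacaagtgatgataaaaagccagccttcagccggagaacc
IFIT1: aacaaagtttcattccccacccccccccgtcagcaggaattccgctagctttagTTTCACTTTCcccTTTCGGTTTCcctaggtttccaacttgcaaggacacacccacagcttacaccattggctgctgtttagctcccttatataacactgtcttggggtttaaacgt
MX1: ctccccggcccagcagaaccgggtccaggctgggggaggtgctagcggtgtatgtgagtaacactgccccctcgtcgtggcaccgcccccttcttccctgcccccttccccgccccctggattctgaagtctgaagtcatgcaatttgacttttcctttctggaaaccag
TRIM25: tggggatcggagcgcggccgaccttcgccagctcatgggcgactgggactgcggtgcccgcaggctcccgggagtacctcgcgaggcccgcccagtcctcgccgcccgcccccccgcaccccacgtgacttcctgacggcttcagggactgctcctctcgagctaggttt
PARP12: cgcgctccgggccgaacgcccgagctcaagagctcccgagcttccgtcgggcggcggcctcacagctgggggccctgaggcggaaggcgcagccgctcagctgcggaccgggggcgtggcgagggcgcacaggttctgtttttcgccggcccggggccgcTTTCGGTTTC

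IFI27 and IFIT1 each held 2 matches close together about 100 bases before the start, and IFI6 held 3 between -156 and -84, counted so that the base before the start is -1. The MX1 stretch shows no capitals because its only match began 11 bases after the start, outside the stretch printed. PARP12 held 1 match, on the last 10 bases before its start, and TRIM25 held none in its window. The median difference in knockdown replicate 1 was 1.68 log2 units for the 26 genes with a match and 1.49 for the 14 without. OAS1, XAF1, RSAD2 and CMPK2 had no ISRE-type match in the window and differed by 3.54, 3.44, 3.35 and 3.18. In knockdown replicate 2 the medians were 0.14 with and -0.03 without a match.

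**Figure D3:**
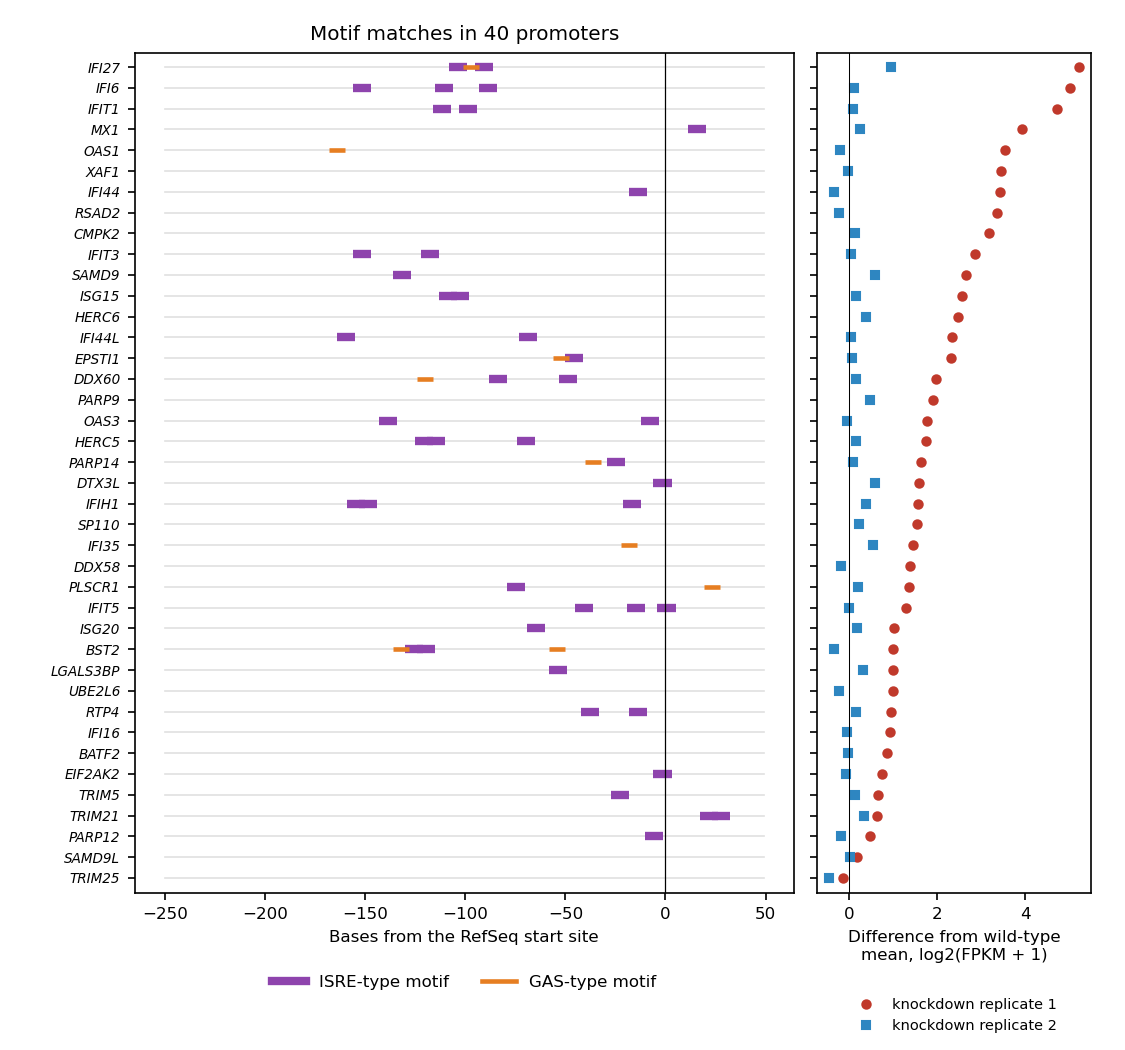
Left, ISRE-type (purple) and GAS-type (orange) motif matches in the 40 promoters found, by distance in bases from the RefSeq start site, with genes ordered by their difference in knockdown replicate 1. Right, the difference of each gene from the wild-type mean on the log2(FPKM + 1) scale in knockdown replicate 1 (circles) and knockdown replicate 2 (squares); 38 of the 44 ISRE-type matches lie within 200 bases before the start, among genes with large and with small differences.

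Several of these genes lie side by side. In GENCODE release 29, 11 pairs of consecutive protein-coding genes were both in the set, 21 genes in all. MX2 and MX1 on chromosome 21 differed by 3.89 and 3.92 log2 units in knockdown replicate 1, and CMPK2 and RSAD2 by 3.18 and 3.35. IFIT1 and IFIT5 differed by 4.72 and 1.30, OAS3 and OAS2 by 1.77 and 4.26, and SAMD9 and SAMD9L by 2.65 and 0.16. CMPK2 with RSAD2 and PARP9 with DTX3L share exon bases on opposite strands, and 12 of the 47 genes share such bases with some other gene. Since it is not given whether the counting used strand, part of a value may come from the partner in these genes.

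The upstream part of the pathway was read from lists of related genes. Interferon genes themselves were at or near 0. Of 21, 14 were listed at 0 in all libraries and 20 stayed under 1 FPKM in all of them. The exception was IFNE, an epithelial interferon, at 0.77, 0.76, 0.94 and 1.95 FPKM. IFNL1, an interferon lambda, was at 0.06, 0.08, 0.33 and 0.00 FPKM, and IFNB1, interferon beta, at 0.00, 0.00, 0.17 and 0.00 FPKM. IFNA1, an interferon alpha, was at 0, 0, 0 and 0.54 FPKM. The first 2 of these were highest in knockdown replicate 1 and IFNA1 in knockdown replicate 2, all at levels that passed no filter and have no test. The 21 genes summed to 0.83, 0.84, 1.55 and 2.59 FPKM.

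Of the 9 genes for interferon receptors and JAK kinases, 0 lay over 1 log2 unit from wild type in either knockdown library. Of all genes tested, 2.1% lay above and 1.52% below in knockdown replicate 1, and 2.06% and 1.84% in knockdown replicate 2. So 0 of 9 is near the general share. The median differences were 0.16 and 0.10. IFNAR1, a subunit of the type I receptor, was at 21.6, 27.6, 27.2 and 14.0 FPKM. Its -0.76 in knockdown replicate 2 was the largest difference of this list. IL10RB, a subunit of the lambda receptor, was at 6.90, 6.48, 11.2 and 7.59 FPKM, and IFNGR2, a subunit of the gamma receptor, at 68.0, 68.5, 52.1 and 69.5 FPKM. STAT2 and IRF9 are themselves induced by interferon. IRF9 (ENSG00000213928) stood at 8.39, 10.1, 77.8 and 14.6 FPKM and STAT2 (ENSG00000170581) at 16.9, 15.5, 55.0 and 27.0 FPKM. Both were highest in knockdown replicate 1, and in knockdown replicate 2 they also lay above both wild-type values. IRF7, which amplifies interferon production, was at 11.5, 11.4, 38.0 and 12.5 FPKM and IRF1 at 35.3, 34.9, 48.3 and 40.2 FPKM. IRF9, STAT2 and IRF7 differed from wild type by 2.95, 1.70 and 1.64 log2 units in knockdown replicate 1 and by 0.61, 0.70 and 0.12 in knockdown replicate 2. No gene in any of these lists passed the limma test of both knockdown libraries (0% of all genes did).

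Sensing adapters and kinases had medians of 0.09 and 0.06 over 16 genes. ZBP1, a sensor of Z-form nucleic acid, was at 0.08, 0.13, 2.57 and 2.10 FPKM and AIM2, a sensor of cytosolic DNA, at 0.54, 1.10, 3.77 and 3.01 FPKM. These 2 genes were high in both knockdown libraries, and ZBP1 passed the filter only through them. Of the 16, 3 lay over 1 log2 unit above wild type in knockdown replicate 1 and 2 in knockdown replicate 2. The shares of all genes tested were 2.1% and 2.06%. In knockdown replicate 2, 1 lay over 1 log2 unit below, against 1.84% of all genes tested. It was TMEM173, at 12.3, 13.5, 14.2 and 4.70 FPKM, a difference of -1.28. Genes that edit or remove RNA and DNA which sensors could bind had a median of 0.12 in knockdown replicate 1 over 10 genes, led by the exonuclease TREX1 at 0.96 and the nucleotide hydrolase SAMHD1 at 0.82. Among 11 feedback inhibitors the median was 0.26, led by USP18 at 0.80 and SOCS3 at 0.53.

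Genes of MHC class I presentation, which interferon also induces, had a median of 0.55 in knockdown replicate 1 and 0.00 in knockdown replicate 2 over 15 genes. The 0.00 belongs to HLA-G, which was at 0 in all libraries. Over the 14 genes that passed the filter the medians were 0.60 and 0.04. In knockdown replicate 1 HLA-B was at 1.09 and HLA-C at 0.96, though reads are hard to assign among HLA genes. Interferon gamma type targets had medians of 0.38 and 0.00 over 17 genes, led by GBP1 at 1.26 and the chemokine CXCL10 at 1.19 in knockdown replicate 1. Of the 17, 6 stayed under 1 FPKM in all libraries, and the 0.00 belongs to CXCL9, which was at 0 in each. Over the 10 genes that passed the filter the medians were 0.39 and -0.14. Of 40 other genes known to respond to interferon, 35 were highest in knockdown replicate 1, against 38% of all genes tested. Over 1 log2 unit above wild type lay 9 of 40 in knockdown replicate 1 and 0 in knockdown replicate 2, against 2.1% and 2.06% of all genes tested. DDX60L was at 9.02, 6.88, 38.2 and 10.3 FPKM and APOL1 at 4.40, 4.66, 16.1 and 3.96 FPKM. The median of that list was 0.55 in knockdown replicate 1, below the 1.73 of the 47 genes, and -0.04 in knockdown replicate 2. NF-kB targets and cytokines, a second arm of RNA sensing, had medians of -0.06 and -0.25 over 21 genes, with IL1B at -1.22 and IL1A at -1.16 in knockdown replicate 1.

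The IFITM genes, which block virus entry at membranes, also parted between the knockdown libraries. IFITM1 stood at 3.87, 5.35, 73.9 and 1.11 FPKM and IFITM2 at 3.77, 2.78, 17.4 and 0.14 FPKM, above wild type in the first knockdown library and below it in the second. The gap between the knockdown libraries was 5.15 log2 units for IFITM1, where the highest of the 47 genes, IFI6, was at 4.90.

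**Figure D4:**
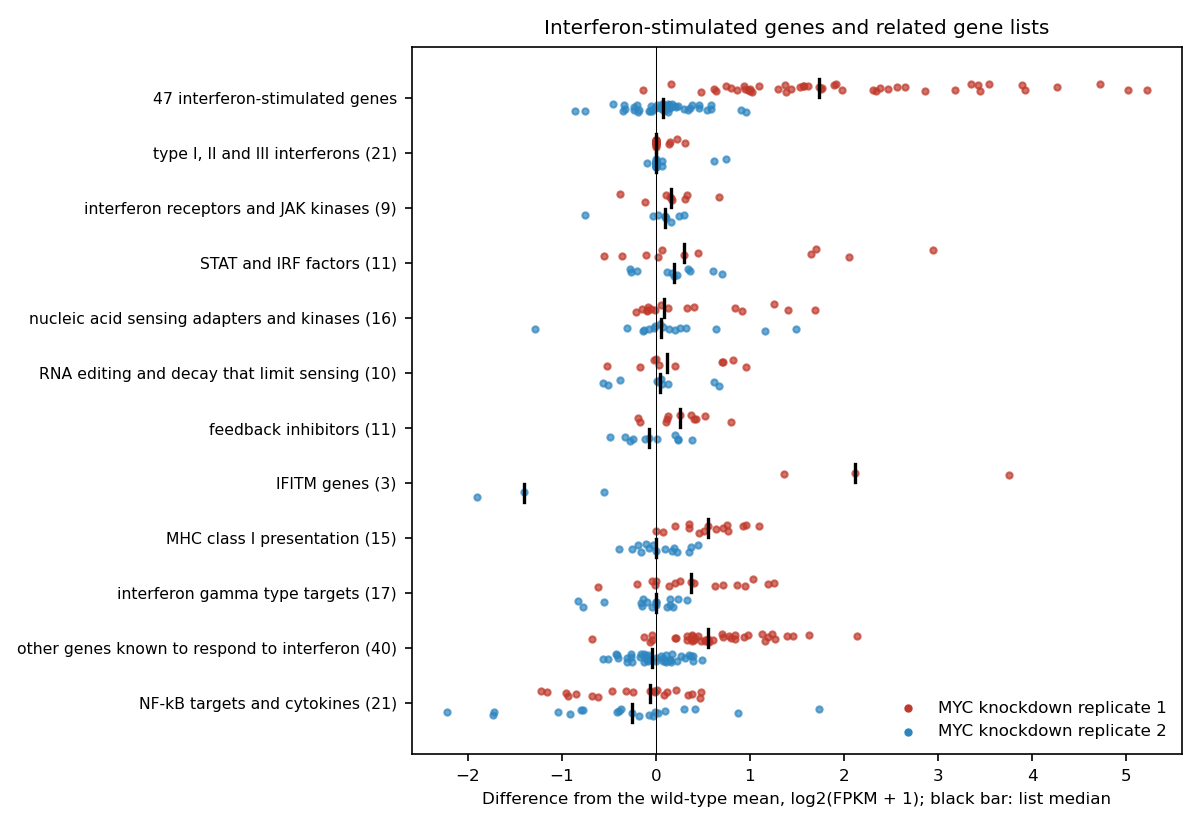
Difference from the wild-type mean on the log2(FPKM + 1) scale for each gene of the set and of 11 related lists, in knockdown replicate 1 (red, upper row) and knockdown replicate 2 (blue, lower row), with the list median as a black bar and the number of genes in brackets. The 47 genes have medians of 1.73 and 0.08, and the interferon genes cluster at 0 in both libraries. USP18 is drawn in the set and again among the feedback inhibitors.

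Genes were also ranked by the difference between the knockdown libraries, among the 9593 genes with a mean of at least 5 FPKM, of which 38 belonged to the set. That mean includes knockdown replicate 1, and 13 of the 38, OAS2, MX2 and IFI27 among them, averaged under 5 FPKM over the other 3 libraries, so they entered only through the library where they were high. The ranking is therefore a description. Of the 50 genes furthest above in knockdown replicate 1, 21 were in the set (9 of these averaged 5 FPKM or more without knockdown replicate 1), 8 were in the related lists and 21 in neither. The 10 highest outside the set were IFITM1, U3, IFITM2, RNU2-2P, RP11-24N18.1, CTD-2555O16.3, RP11-34P13.14, RP11-14N7.2, IRF9 and S100A7. Of these, U3, RNU2-2P, RP11-24N18.1 and CTD-2555O16.3 were at 0 in at least 1 wild-type library. S100A7, an antimicrobial protein of epithelia, was at 127, 152, 130 and 30.6 FPKM, so its gap came from a low value in knockdown replicate 2 and not a high one in replicate 1.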

How the data were processed

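RNA sequencing of NUGC3 gave 2 wild-type and 2 MYC knockdown libraries, grouped and numbered by their titles. The authors deposited 1 table of values that were taken as FPKM from the values themselves, since no header names the unit. The submitters' processing notes list STAR and RSEM. Tool versions, genome build and annotation are not named there. Of the table's 344810 rows, the 53777 Ensembl rows were used.

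FPKM does not keep depth. Steps in the low values of genes with 1 transcript would put the libraries at about 26, 21, 20 and 20 times 1e6 fragments if a step is 1 fragment, so no counting interval is given. Genes reaching 1 FPKM in 2 or more libraries entered limma 3.58.1 (log2(FPKM + 1), mean trend, R 4.3.3), threshold 0.05 after Benjamini-Hochberg adjustment. The fit was run on simulated libraries that all varied like the wild-type pair, with equal changes in both knockdown libraries. That run does not cover the wider spread of the real knockdown pair or changes in 1 library only. Single knockdown libraries were set against the wild-type mean by size, with a rule of 1 log2 unit. The 47 genes, the related lists and the tests were chosen with earlier results of these data known. Named genes were the extremes of each role group, all members at least 0.25 log2 units from wild type in knockdown replicate 2, fixed signalling genes with the 2 largest of each related list, and the 10 genes outside the set highest in knockdown replicate 1 over 2. Promoter sequences come from RefSeq (GRCh38.p14), and neighbours from GENCODE 29. Alternatives were the filter, the pseudocount, 3 scalings, protein-coding rows, libraries left out, a replicate block, a 1.5-fold rule and a threshold of 0.10. One signalling gene of the related lists is not reported here.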

Additional observations from a re-analysis of the deposited data

How the results depend on the processing

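The high level of the 47 genes in knockdown replicate 1 kept its direction in every alternative run. FPKM keeps no counts, so no counting interval could be given for genes near 0. The median of 1.73 was 1.62 over the genes that passed the filter (chosen after seeing the data), 1.6 over those with a mean of at least 5 FPKM, 1.86 with a pseudocount of 0.1, 1.79 with equal column sums, 1.65 with median of ratios and 1.64 with quantile normalization. The median of knockdown replicate 2 was 0.14 with a pseudocount of 0.1 and 0.17 with equal column sums. The median gap between the knockdown libraries was 1.85 with a pseudocount of 0.1, 1.5 with equal column sums and 1.49 with median of ratios. The count over 1 log2 unit above wild type in knockdown replicate 2 was 2 with a pseudocount of 0.1 and 1 with equal column sums. Under a 1.5-fold rule in place of 1 log2 unit, 3 genes lay above wild type in knockdown replicate 2, IFI27, TRIM22 and SAMD9. OASL and IFIT2 were past the same size below wild type. The share of all genes past these alternative rules was not computed, so the counts are descriptions.

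Leaving out 1 wild-type library gave medians of 1.65 to 1.71 for knockdown replicate 1 and 0.06 to 0.08 for knockdown replicate 2. The counts over 1 log2 unit above wild type were 34 to 37 and 0 to 1. Genes with every remaining knockdown value above every remaining wild-type value numbered 27 to 46 with 1 library left out. Without knockdown replicate 2 the number was 46 of 47, against 51.8% of all genes tested. Without knockdown replicate 1 it was 27 of 47, against 44.1%. The share of all genes with a wild-type library left out is not given, so those counts are descriptions. The limma count ran from 0 to 40 with 1 library left out, 40 without knockdown replicate 2, 9 without knockdown replicate 1 and 0 without either wild-type library.

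With the replicate number as a block, limma called 0 of 41 genes and 0 of all 12953 genes tested. Over 12953 genes the deviations of same-numbered libraries correlated at -0.0059. The median absolute difference was 0.20 log2 units for the knockdown pair and 0.08 for the wild-type pair. A wide knockdown gap can hide a shared part, so this value cannot settle whether the numbers pair the libraries. At an adjusted p under 0.10, 0 of 41 passed. Over all genes, limma called 0 in the form reported, 310 among genes with a mean of at least 5 FPKM, 308 with median of ratios and 385 over protein-coding rows, with 0 of the interferon-stimulated genes in each. DESeq2 was not run because the table holds no counts.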
